A study of Sus scrofa with 9 samples.

Results

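The 7 genes described here encode subunits of NADPH oxidases: CYBB, CYBA, NCF1, NCF4, RAC2, NOX1 and NOX4. They were taken by name from the 21357 genes of an RNA-seq table of pig abdominal aorta. Of the 7, 6 were listed under their own symbols. CYBB was listed as GP91-PHOX, which RefSeq gives as the symbol of the same pig gene, and was matched through that synonym. All 7 were measured, 6 were abundant enough to be tested, and NOX1 was not.

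The animals were male Tibetan minipigs, a small pig breed, 3 to 4 months old when purchased. NC pigs (normal control) ate a normal diet for 24 weeks. H8 pigs ate a high-fat diet for 8 weeks and are labelled with hypercholesterolemia, and H24 pigs ate a high-fat diet for 24 weeks and are labelled with atherosclerosis. Each group had 3 libraries, from 3 of the 5 pigs of the NC and of the 24-week diet groups, chosen at random by the authors. For the 24-week group the methods describe a high fat/cholesterol (HFC) diet of shortening oil, cholesterol and egg yolk powder in basal feed. The age and exact feed of the H8 pigs are taken no further than the labels, and H8 had no control of its own length of feeding, so that diet and length of feeding cannot be told apart between H8 and NC. The labels do not say that the H8 libraries came from separate pigs, and their spread may then be technical.

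NADPH oxidases carry electrons from NADPH across a membrane to oxygen and so make superoxide or hydrogen peroxide. In the phagocyte enzyme, CYBB (also called NOX2) is the catalytic subunit and sits in the membrane with its partner CYBA, while cytosolic proteins such as NCF1 and NCF4 and the small GTPase RAC2 join them on activation. NOX1 and NOX4 are catalytic subunits found outside phagocytes. NOX4 is the form known from smooth muscle, endothelial cells and fibroblasts of the vessel wall, pairs with CYBA, and is active without the cytosolic subunits.

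The estimated counts summed to between 44094263 and 75787978 per library. At these depths 3 counts, the floor used here, correspond to 0.0396 to 0.0680 CPM (counts scaled by library depth), which covers counting error only. H24 replicate 3 stood apart. Its Pearson correlation of log2 CPM across genes, which are not independent replicates, was 0.918 with H24 replicate 1 and 0.891 with H24 replicate 2, against 0.962 to 0.979 for every other pair within a group. No library repeated another. The smooth muscle markers of the labelled tissue were high, with a summed level of 10134 to 13987 FPKM (fragments scaled by exon length and library depth) for 7 genes in the NC and H8 libraries. In H24 the sums were 8187, 12048 and 1747 FPKM in replicates 1 to 3. Results that rest on H24 replicate 3 are therefore given with and without it.

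The phagocyte subunits were lower in every NC library than in every H24 library, while NOX4 showed no such order. CYBB, CYBA, NCF1, NCF4 and RAC2 rose in H24/NC by 7.40-fold (CYBA) to 51.2-fold (CYBB). A gene was called changed by the study's thresholds, an unadjusted p in edgeR below 0.05 and a log2 fold change above 1 or below -1, and the quasi-likelihood test of edgeR was chosen here. By this rule 5 of the 6 tested members rose in H24/NC, and none fell, while 9.95% of all 14828 tested genes rose and 1.52% fell. In H8/NC 4 of 6 rose, against 5.11% of 14336 genes (2.27% fell), and in H24/H8 4 of 6 rose, against 7.22% of 14788 genes (3.05% fell). The libraries of the higher group lay wholly above those of the lower one for 5, 5 and 4 members in these comparisons, against 12.8%, 6.91% and 15.5% of all genes. The median log2 fold change of the 6 was 4.18, 1.19 and 2.52 in the respective comparisons, beside 0.01, 0.01 and 0.04 over all genes. Without H24 replicate 3 this median was 2.50 in H24/NC and 0.87 in H24/H8.

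None of the members passed a Benjamini-Hochberg adjusted p of 0.05 with all 3 libraries a group, and over all genes 0% rose by that rule in H24/NC, 0.014% in H8/NC and 0.0135% in H24/H8. In edgeR 5, 5 and 4 members had an unadjusted p below 0.05 in H24/NC, H8/NC and H24/H8, against 13.9%, 14.8% and 13.7% of all genes. DESeq2, run as an alternative, gave no p to NCF1 and RAC2 in H24/NC and H24/H8. In it 3 of 4 members passed the adjusted threshold in H24/NC, 2 of 6 in H8/NC (CYBB and RAC2) and 1 of 4 in H24/H8 (NCF4). Of all genes, here counting also those without a p, 6.43%, 4.3% and 4.4% passed in either direction. Without H24 replicate 3 the same 5 members rose in H24/NC, against 6.49% of all genes, and 4 of them (CYBB, NCF1, NCF4 and RAC2) passed the adjusted threshold, against 1.99% of all genes. In H24/H8 without that library 3 members (NCF1, NCF4 and RAC2) rose, against 3.75% of all genes, and none passed the adjusted threshold, against 0.0206%.

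**Figure D1:**
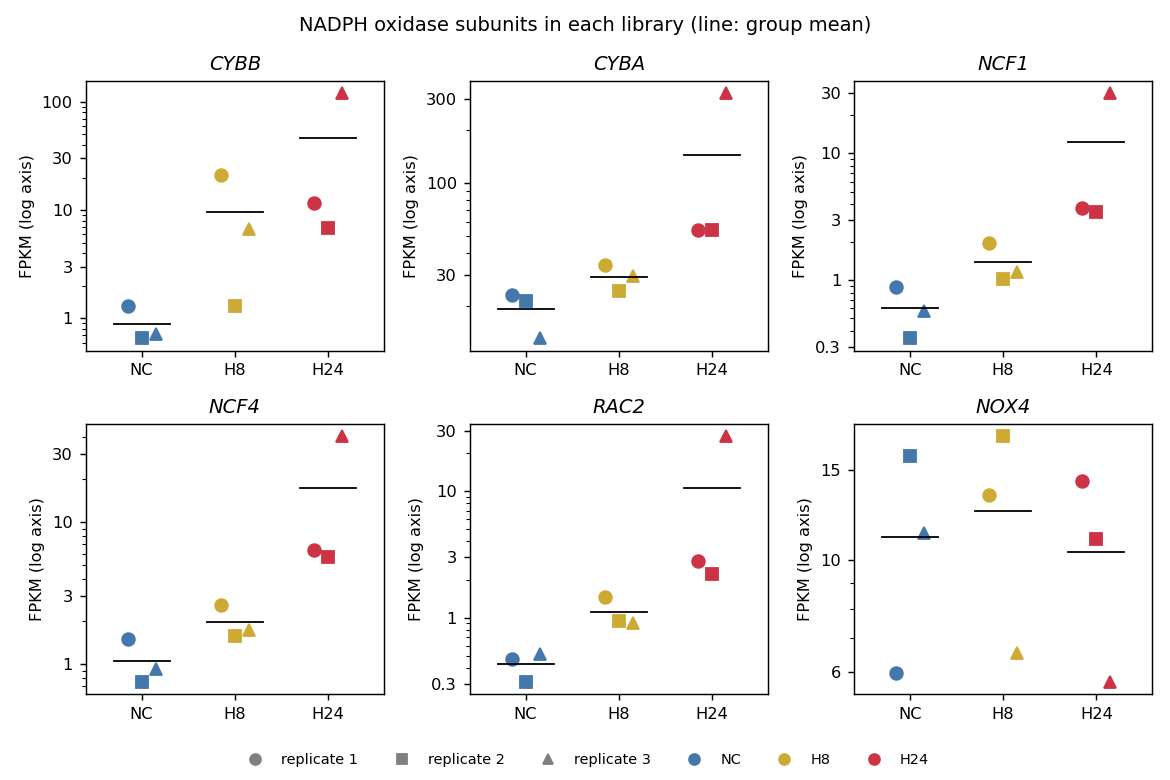
Level of 6 subunits in each of the 9 libraries, in FPKM on a log axis whose range differs between panels; colours are the groups, symbols the replicates and the black lines the group means (n = 3). The NC libraries are lowest for CYBB, CYBA, NCF1, NCF4 and RAC2 and H24 replicate 3 is highest, while the 3 groups overlap for NOX4; NOX1, at 0 in 8 libraries, is not drawn.

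The catalytic subunit CYBB (ENSSSCG00000012229, chromosome X, 33654656 to 33678333, plus strand, Sscrofa11.1) ranged more widely over the 9 libraries than any other tested member, with 183 times as much FPKM in the highest as in the lowest. Its level was 1.31, 0.654 and 0.714 FPKM in NC replicates 1 to 3, from 77 to 141 counts. In H8 it was 21.0, 1.32 and 6.75 FPKM, and in H24 11.6, 6.84 and 120 FPKM, from up to 12025 counts. Every H8 and H24 library lay above every NC library, but H8 replicate 2 was level with NC replicate 1 (1.32 against 1.31 FPKM), and H8 replicate 1 lay above H24 replicates 1 and 2.

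The log2 fold change of CYBB was 5.68 ± 1.23 (SE) in H24/NC (edgeR, adjusted p = 0.132) and 3.54 ± 0.90 in H8/NC (adjusted p = 0.206), each past the unadjusted rule. H24/H8 gave 2.08 ± 1.27 (unadjusted p = 0.146), did not pass, and gave -0.22 without H24 replicate 3. No difference of CYBB between H8 and H24 was therefore shown, but with 3 libraries a group one is not excluded. Both groups lay above NC in FPKM, H8 only narrowly (lowest 1.32, against 1.31 for the highest NC library). With all 3 libraries a group neither contrast with NC passed the adjusted threshold. The H24/NC value was 3.34 without H24 replicate 3 (adjusted p = 0.0112).

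A second, unnamed gene of the table (ENSSSCG00000036246) lies 6262 bp upstream of CYBB on the same strand of chromosome X, from 33642054 to 33648393, and is also given the symbol GP91-PHOX by the gene name reference. Its FPKM was 4.53% to 10.3% of that of CYBB in each library. It was not added to CYBB here.

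CYBA (ENSSSCG00000031493, chromosome 6, 1015219 to 1021220, plus strand), the membrane partner of CYBB and of NOX4, had the highest level of the 7 genes in every library. It reached 23.3, 21.3 and 13.1 FPKM in NC, 34.2, 24.5 and 29.6 FPKM in H8, and 54.3, 54.4 and 324 FPKM in H24. The 3 groups did not overlap and stood in the order NC, H8, H24. CYBA also spanned the smallest range of the phagocyte subunits, 24.7-fold from the lowest to the highest library.

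CYBA rose in H24/NC by 2.89 ± 0.78 on the log2 scale (edgeR, adjusted p = 0.178) and in H24/H8 by 2.10 ± 0.71 (adjusted p = 0.341). In H8/NC the log2 fold change of 0.74 ± 0.26 had an unadjusted p of 0.0236 but missed the fold threshold. Without H24 replicate 3 the values were 1.47 in H24/NC (adjusted p = 0.0638), still called by the unadjusted rule, and 0.72 in H24/H8, no longer called.

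NCF1 (ENSSSCG00000007722, chromosome 3, 11820121 to 11834535, plus strand), the cytosolic organizer that brings the other cytosolic subunits to the membrane, was at 0.878, 0.348 and 0.576 FPKM in NC. It was at 1.98, 1.03 and 1.17 FPKM in H8 and at 3.74, 3.47 and 29.8 FPKM in H24. The groups stood in the order NC, H8, H24 with no overlap. The log2 fold change was 4.34 ± 1.0 in H24/NC (edgeR, adjusted p = 0.136), 1.34 ± 0.48 in H8/NC (adjusted p = 0.276) and 2.95 ± 0.90 in H24/H8 (adjusted p = 0.341), each past the unadjusted rule. These values became 2.56 in H24/NC (adjusted p = 0.0435) and 1.21 in H24/H8 without H24 replicate 3.

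NCF4 (ENSSSCG00000000137, chromosome 5, 10878435 to 10992803, minus strand), a cytosolic subunit that binds a phosphoinositide of phagosome membranes, followed the same order of groups. NC libraries had 1.497, 0.752 and 0.929 FPKM, H8 libraries 2.61, 1.58 and 1.75 FPKM, and H24 libraries 6.41, 5.68 and 40.2 FPKM. Its log2 fold change was 4.03 ± 0.88 in H24/NC (edgeR, adjusted p = 0.132) and 2.94 ± 0.80 in H24/H8 (adjusted p = 0.336). In H8/NC it was 1.03 ± 0.39 (unadjusted p = 0.0306), just beyond the fold threshold. Leaving out H24 replicate 3 gave 2.49 in H24/NC (adjusted p = 0.0231) and 1.44 in H24/H8. The gene overlaps PVALB on the opposite strand, which was at 0 FPKM in all libraries.

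RAC2 (ENSSSCG00000021944, chromosome 5, 10553433 to 10573016, plus strand), the GTPase of blood cells that switches the phagocyte enzyme on, had the lowest mean FPKM of the 6 tested members in NC. It measured 0.475, 0.312 and 0.513 FPKM in NC, 1.46, 0.934 and 0.902 FPKM in H8, and 2.82, 2.19 and 26.9 FPKM in H24, again without overlap between groups. The log2 fold change was 4.60 ± 1.07 in H24/NC (edgeR, adjusted p = 0.139), 1.48 ± 0.36 in H8/NC (adjusted p = 0.202) and 3.06 ± 0.98 in H24/H8 (adjusted p = 0.341). All 3 passed the unadjusted rule. Without H24 replicate 3 the values were 2.50 in H24/NC (adjusted p = 0.0197) and 1.01 in H24/H8.

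RAC2 and NCF4 lie 305 kb apart on chromosome 5. Of the 10 genes listed between them 6 were tested, with log2 fold changes from -0.88 to 4.16 in H24/NC. Of these 6, 2 rose, against 9.95% of all genes.

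NOX4 (ENSSSCG00000014927, chromosome 9, 22624212 to 22776088, minus strand) had 5.97, 16.0 and 11.3 FPKM in NC, 13.4, 17.5 and 6.55 FPKM in H8, and 14.3, 11.0 and 5.75 FPKM in H24. The 3 groups overlapped, and the lowest and the highest library differed 3.04-fold. The log2 fold change was -0.14 ± 0.45 in H24/NC (edgeR, adjusted p = 0.923), 0.33 ± 0.47 in H8/NC (adjusted p = 0.788) and -0.48 ± 0.49 in H24/H8 (adjusted p = 0.665). NOX4 passed neither rule in any comparison, and its sign in H24/NC turned to 0.15 without H24 replicate 3 and to 0.25 without NC replicate 2. H24 replicate 3, where the phagocyte subunits peaked, had the lowest NOX4 of all 9 libraries, 0.454 times the mean of H24 replicates 1 and 2.

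NOX1 (ENSSSCG00000012485, chromosome X, 82541274 to 82575114, minus strand), the form best known from colon epithelium, had no count in 8 libraries, which allows up to 3 counts in each. NC replicate 3 had 4 counts, or 0.0340 FPKM. NOX1 was therefore not detectable in the high-fat diet pigs at this depth, and it was left out of the tests by the filter of a mean of 0.1 FPKM. It shares 1682 bp with CSTF2 on the opposite strand.

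**Figure D2:**
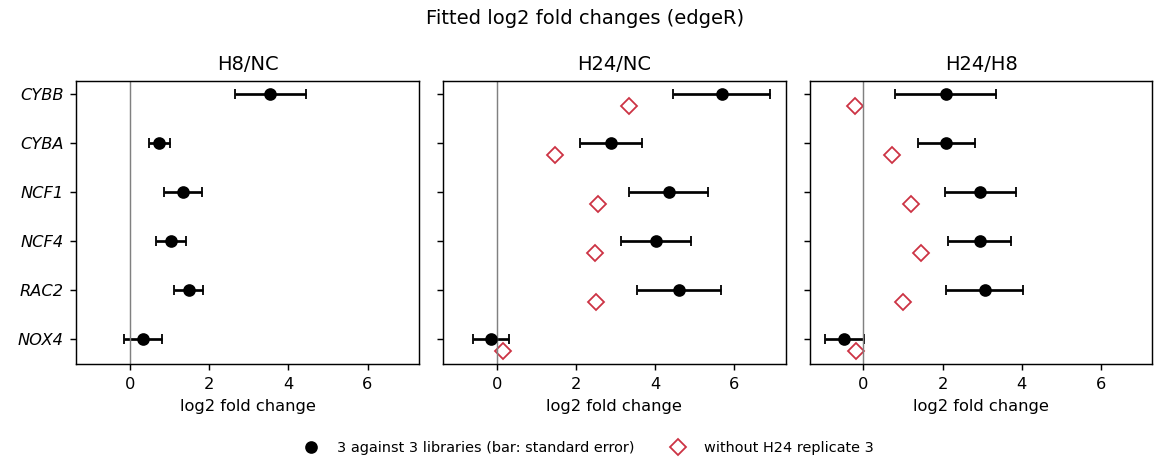
Fitted log2 fold change of the 6 tested members in H8/NC, H24/NC and H24/H8 from edgeR (black points, bars of 1 standard error) and, for the comparisons that use it, the value without H24 replicate 3 (open diamonds). CYBB has the largest value in H24/NC (5.68) and in H8/NC (3.54), is -0.22 in H24/H8 without that library, and NOX4 stays within 0.5 of 0 throughout.

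H24 replicate 3 exceeded the mean of H24 replicates 1 and 2 to a different degree for each subunit. The ratio of FPKM was 13.0 for CYBB and 10.7 for RAC2. It was 8.27 for NCF1, 6.65 for NCF4 and 5.96 for CYBA. The other H24 libraries also lay above NC: relative to the NC mean, CYBB was 13.1 and 7.66 times as high in H24 replicates 1 and 2, while CYBA was 2.82 times as high in both.

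Ranking by FPKM, a scale per length of transcript, placed the 7 genes in the same order in all 3 NC libraries, namely CYBA, NOX4, NCF4, CYBB, NCF1, RAC2 and NOX1. The neighbours NCF4 (1.06 ± 0.39 FPKM, SD, n = 3) and CYBB (0.892 ± 0.362 FPKM) had overlapping ranges over the NC libraries, as had NCF1 (0.601 ± 0.266 FPKM) and RAC2 (0.433 ± 0.107 FPKM), although within each NC library the first of each pair was the higher. In H8 replicates 1 and 3 CYBB moved up to the second place, ahead of NOX4, and in H24 replicates 1 and 2 it came next after NOX4. In H24 replicate 3 the order was CYBA, CYBB, NCF4, NCF1, RAC2 and then NOX4.

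The ratio of the phagocyte catalytic subunit to that of the vessel wall shows this change within each library. CYBB/NOX4 was 0.219, 0.0409 and 0.0632 in NC replicates 1 to 3 on the FPKM scale. It was 1.57, 0.0753 and 1.03 in H8, and 0.814, 0.621 and 20.8 in H24. CYBB exceeded NOX4 in H8 replicates 1 and 3 and in H24 replicate 3, and all H24 ratios lay above all NC ratios.

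Within the phagocyte enzyme the cytosolic subunits kept their proportions within narrow ranges. NCF4/NCF1 lay between 1.32 and 2.16 and NCF1/RAC2 between 1.10 and 1.85 over the 9 libraries, although each of the 3 genes spanned 53.5-fold to 86.2-fold. CYBB did not keep to them. CYBB/NCF1 was 1.49, 1.88 and 1.24 in NC, 10.7, 1.28 and 5.77 in H8, and 3.11, 1.97 and 4.02 in H24. The H24 ratios all exceeded the NC ratios, and 2 of the H8 ratios exceeded every H24 ratio while that of H8 replicate 2 lay among the NC values. CYBA/NCF1 moved the other way, from 26.5, 61.4 and 22.8 in NC through 17.3, 23.9 and 25.3 in H8 to 14.5, 15.7 and 10.9 in H24. Each H24 value lay below each value of NC and of H8. These ratios are descriptions and were not tested.

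**Figure D3:**
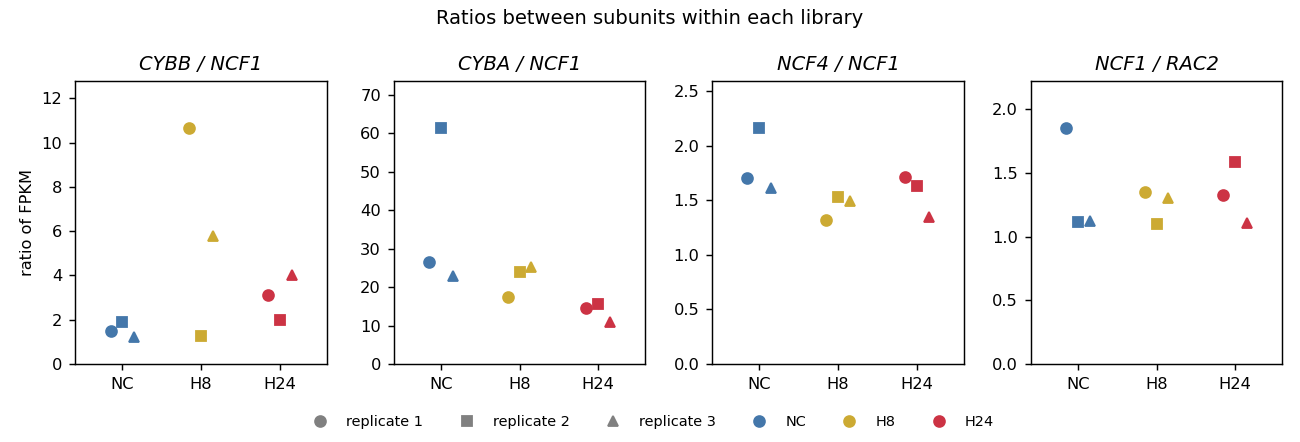
Ratios of FPKM between subunits within each of the 9 libraries (linear axes from 0), with groups on the horizontal axis and replicates by symbol. NCF4/NCF1 and NCF1/RAC2 stay between 1.10 and 2.16, CYBB/NCF1 reaches 10.7 in H8 replicate 1, and CYBA/NCF1 is lowest in H24.

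Distances between whole profiles restate such ratios on a log scale over the same 9 libraries, and are not separate evidence. The root mean square difference of log2(CPM + 0.5), centred on each gene's mean over the 9 libraries, was 0.121 between NCF1 and NCF4, 0.213 between NCF1 and RAC2 and 0.283 between NCF4 and RAC2. CYBA lay 0.446 from NCF1, 0.429 from NCF4 and 0.557 from RAC2. CYBB lay 0.963 to 1.23 from the other phagocyte subunits, and NOX4 lay 1.57 to 2.49 from every other member. As a scale, the profiles themselves varied around their means by 0.629 (NOX4) to 2.18 (CYBB).

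Among 10323 other named genes with a mean of at least 1 FPKM, the profile most like that of NCF1 was IL2RG (distance 0.156), a receptor chain shared by several lymphocyte cytokines. IL2RG was also the nearest gene to NCF4 (0.210) and to RAC2 (0.208). For RAC2 the next were IFI30 (0.226), a lysosomal thiol reductase, and CTSH (0.256), a lysosomal protease. For NCF1 they were TSPAN10 (0.282) and DNASE2 (0.284), and for NCF4 C16orf54 (0.278) and TSPAN10 (0.288). CYBB was nearest to CXCL14 (0.283), VSIG4 (0.305), a complement receptor of macrophages, and TREM2 (0.334), a lipid-sensing receptor of macrophages. CYBA was nearest to FLVCR2 (0.213), DOCK4 (0.218) and FTL (0.236), the light chain of ferritin. NOX4 was nearest to EBF1 (0.258), RHOJ (0.264) and GPER1 (0.267). All profiles share the same 9 libraries and H24 replicate 3, so the distances are descriptions over 9 points.

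Markers of myeloid cells, the cells known to carry the phagocyte enzyme, moved with the subunits. The 9 genes of the list (CD68, CD14, CSF1R, ITGAM, ITGB2, TYROBP, AIF1, CD163 and SPI1) summed to 23.5 to 27.3 FPKM in NC, 26.9 to 140 FPKM in H8 and 159 to 1682 FPKM in H24, and none was at 0 in any library. Of the 9, 9 rose in H24/NC, 6 in H8/NC and 9 in H24/H8, against 9.95%, 5.11% and 7.22% of all genes. Without H24 replicate 3, 9 rose in H24/NC and 2 in H24/H8, against 6.49% and 3.75% of all genes. ITGAM, ITGB2 and TYROBP are hub genes that the authors drew from their own changed genes at 24 weeks, and they also report SPI1 as raised. The rise of these genes in H24/NC was therefore known before the list was made. In tissue RNA, fewer cells of a type and less RNA per cell cannot be told apart, nor can more cells and more RNA per cell.

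The myeloid mean and CYBB were both above NC in every H8 and H24 library but did not rank these libraries alike. Relative to NC, the mean log2 CPM of the list was higher by 2.33, 0.28 and 1.49 in H8 replicates 1 to 3 and by 3.05, 2.37 and 5.68 in H24 replicates 1 to 3. On the same scale CYBB was higher by 4.28, 0.66 and 2.63 in H8 and by 3.29, 2.63 and 6.65 in H24. H8 replicate 2 was the library nearest to NC in both, and H24 replicate 3 the highest in both. H8 replicate 1 lay above H24 replicates 1 and 2 for CYBB and below both for the myeloid mean, and H8 replicate 3 was level with H24 replicate 2 for CYBB but lower in the myeloid mean. What part cell composition had in the subunit levels was not tested.

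Set against the myeloid mean of the same library, the subunits differed in how they moved. The difference between the log2 CPM of CYBB and the myeloid mean was -1.53, -2.26 and -2.27 in NC. It was -0.06, -1.63 and -0.88 in H8 and -1.78, -1.76 and -1.05 in H24, so that the groups overlapped and H8 held the highest value. NCF1 averaged -2.40, -2.76 and -2.99 in NC, H8 and H24, NCF4 averaged -1.73, -2.23 and -2.29, and RAC2 averaged -1.93, -2.09 and -2.33. For these 3 genes the groups overlapped.

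CYBA went from 0.64 ± 0.48 (SD, n = 3) in NC through 0.01 ± 0.87 in H8 to -0.73 ± 0.45 in H24, with H24 below NC in every library. NOX4 went from 3.26 in NC to 2.18 in H8 and -0.55 ± 2.37 in H24, and all H24 libraries lay below all others. The subtracted myeloid mean was itself higher than in NC by 2.37 to 5.68 in the H24 libraries. In H24/NC the log2 fold change was -0.14 for NOX4, with overlapping groups, and 2.89 for CYBA. The lower differences in H24 therefore do not show a fall of NOX4 or of CYBA. These differences were not tested.

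**Figure D4:**
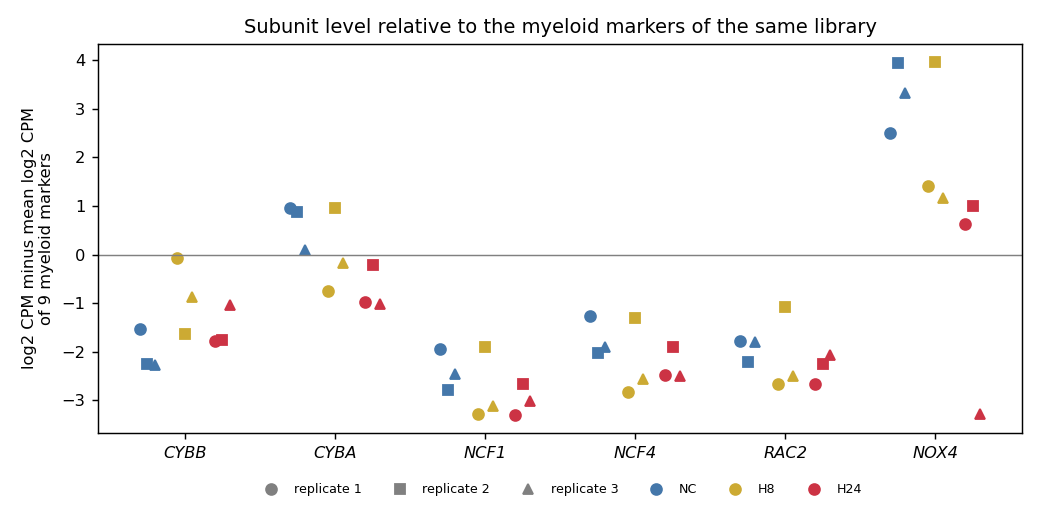
Difference between the log2 CPM of each subunit and the mean log2 CPM of 9 myeloid markers in the same library, for 6 members; 0 marks the myeloid mean, colours are groups and symbols replicates. CYBB, NCF1, NCF4 and RAC2 lie below 0 in all libraries with the groups overlapping, CYBA passes from 0.64 to -0.73 on average and NOX4 reaches -3.28 in H24 replicate 3.

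Other cell type lists moved in part as well. The 5 of 6 neutrophil markers in the table summed to 0.445 to 0.495 FPKM in NC, 2.25 to 4.38 FPKM in H8 and 4.90 to 60.5 FPKM in H24, and MPO, the defining granule enzyme, was at 0 in every library but H24 replicate 3 (0.626 FPKM). The H8 sum was mostly the receptor CSF3R (0.255 FPKM in NC and 3.39 FPKM in H8, means), while S100A8 was at 0.178 FPKM in NC and at 0 in H8. CSF3R, the only neutrophil marker tested in H8/NC, rose by 3.84 on the log2 scale (edgeR, adjusted p = 0.0206). By the adjusted rule 2 of all 14336 genes rose there, CSF3R among them. The NC level of S100A8 came from only 4 to 8 counts a library, near the floor. From NC to H8, S100A9 went from 0.0350 to 0.00837 FPKM and S100A12 from 0.00836 to 0.0322 FPKM, also from few counts. Lymphocyte markers summed to 5.24 to 5.98 FPKM in NC, 1.90 to 4.38 FPKM in H8 and 12.6 to 26.1 FPKM in H24. The sum in NC and H8 was mostly the B cell gene CD79A (means of 5.10 and 2.42 FPKM). The T cell gene CD2, with means of 0.107 and 0.446 FPKM, rose in H8/NC by 2.18 on the log2 scale (edgeR, unadjusted p = 0.00637). It was the only 1 of 4 tested lymphocyte markers that rose there, against 5.11% of all genes. The T cell gene CD3E was not called (0.76, edgeR, unadjusted p = 0.268), and CD79A (-0.96) and CD79B (-1.53) were lower. In H24/NC 3 of 5 tested neutrophil markers and 3 of 5 tested lymphocyte markers rose, against 9.95% of all genes. Without H24 replicate 3 the counts were 1 of 3 and 2 of 5, against 6.49%. None of 7 smooth muscle and none of 5 endothelial markers passed the rule in any comparison, although the smooth muscle sum in H24 replicate 3 was the lowest of all libraries. None of the 7 smooth muscle markers had a positive log2 fold change in H24/NC (median -0.82). In FPKM 3 of them lay wholly below NC, against 1157 of all 14828 tested genes. Without H24 replicate 3 the median was -0.33 and 1 of 7 was positive. The authors report muscle contraction among the functions of their down-regulated genes. Fibroblast markers summed to 850 to 1049 FPKM in NC and 1192 to 1926 FPKM in the diet groups. The sum was mostly COL1A1 (means of 739, 1367 and 947 FPKM in NC, H8 and H24), which was called in H8/NC (1.02) but not in H24/NC (0.34). In H24/NC 2 of 4 rose, PDGFRA and LUM, against 9.95% of all genes. Adipocyte markers summed to 49.1 to 157 FPKM over all libraries, mostly from FABP4. Of these, 1 of 5 rose in H24/NC, 3 of 4 tested fell in H8/NC and 4 of 5 rose in H24/H8, also without H24 replicate 3. The all-gene shares were 9.95%, 2.27% and 7.22%. Without that library they were 6.49% in H24/NC and 3.75% in H24/H8. ADIPOQ, the adipocyte hormone adiponectin, had means of 8.61, 0.0934 and 2.58 FPKM in NC, H8 and H24. Its H24 libraries ranged from 0.0705 to 7.24 FPKM and so overlapped the H8 range of 0.0789 to 0.106 FPKM.

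**Figure D5:**
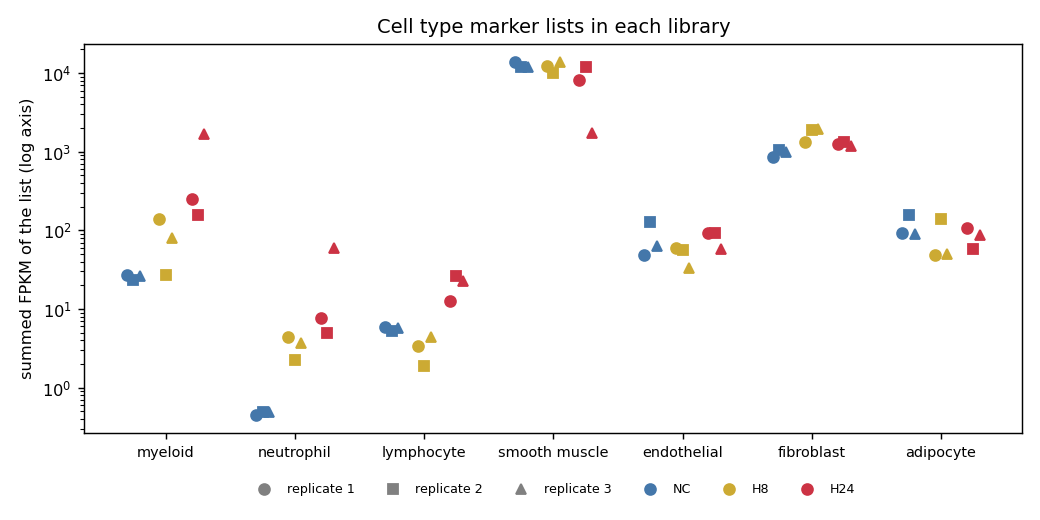
Summed FPKM of 7 cell type marker lists in each library on a log axis, by group (colour) and replicate (symbol). The myeloid sum rises from 23.5 to 27.3 FPKM in NC to 1682 FPKM in H24 replicate 3, where the smooth muscle sum is lowest (1747 FPKM).

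Of 11 other genes of the oxidase family and its partners, 9 were in the table and 7 were tested in H24/NC. Of these 2 rose, against 9.95% of all genes, and none fell. Those that rose were DUOX2 (3.34 ± 1.18) and DUOX1 (2.35 ± 0.89), peroxide-making oxidases known from thyroid and airway. Both were at or below 0.174 FPKM in every NC library and reached 2.53 and 0.453 FPKM only in H24 replicate 3, without which DUOX2 did not pass and DUOX1 was too low to be tested. CYBC1, a chaperone needed for the CYBB and CYBA pair, had a log2 fold change of 0.89 ± 0.41 in H24/NC (unadjusted p = 0.0643). Its level was 16.2 to 17.2 FPKM in NC, 11.7 to 14.5 FPKM in H8 and 17.6, 25.0 and 51.9 FPKM in H24. None of 3 tested genes of the list passed in H8/NC. In H24/H8 2 of 7 rose, against 7.22% of all genes, or 0 of 4 without H24 replicate 3, against 3.75%.

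The widely expressed GTPase RAC1, which can stand in for RAC2, was at 110 to 145 FPKM in all 9 libraries, with a log2 fold change of -0.04 in H24/NC. RAC1 thus exceeded RAC2 in every library.

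Of 15 regulators of oxidase activity, all tested in H24/NC, 6 rose and none fell, or 3 rose without H24 replicate 3. Of all genes 9.95% rose, or 6.49% without that library. The 4 regulators with the smallest p were VAV1 and DOCK2, exchange factors that activate Rac GTPases in blood cells, HVCN1, the proton channel that balances the charge moved by the phagocyte enzyme, and PRKCD, a kinase that phosphorylates cytosolic subunits. VAV1 went from 0.349 to 0.615 FPKM in NC to 3.62 to 41.9 FPKM in H24 (log2 fold change 5.19 ± 0.99), and without H24 replicate 3 by 3.50 (edgeR, adjusted p = 0.00875). DOCK2 changed by 4.54 ± 1.05, HVCN1 by 4.28 ± 1.08 and PRKCD by 1.11 ± 0.34. DOCK2 (2.71) and HVCN1 (2.67) were still called without H24 replicate 3, and PRKCD (0.71) missed the fold threshold. In H8/NC 3 of 14 tested regulators rose, against 5.11% of all genes. In H24/H8 4 of 15 rose, against 7.22%, or 1 without H24 replicate 3, against 3.75%.

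Among 9 other genes that make or remove superoxide and peroxide, 2 rose by the rule in H24/NC, GPX1 and XDH, against 9.95% of all genes. GPX1, a peroxidase that reduces hydrogen peroxide, was at 256, 313 and 401 FPKM in NC and at 529, 627 and 1743 FPKM in H24, a log2 fold change of 1.56 ± 0.51, which was 0.82 and not called without H24 replicate 3. XDH, a superoxide-making purine oxidase, was listed at 0 FPKM in all NC and H8 libraries and reached 0.736 FPKM in H24 replicate 3, without which it was too low to be tested, so its call rests on that library alone. SOD2, the mitochondrial superoxide dismutase, had a log2 fold change of 1.17 ± 0.62 (unadjusted p = 0.101), and SOD1, its cytosolic counterpart, of -0.33 ± 0.22 (unadjusted p = 0.176).

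In the pathway annotation that the authors attached to each gene, 5 members (CYBA, CYBB, NCF1, NCF4 and RAC2) shared leukocyte transendothelial migration. Phagosome and leishmaniasis were shared by CYBA, CYBB, NCF1 and NCF4. Fluid shear stress and atherosclerosis held CYBA, NCF1, NOX1 and RAC2, and NOX4 shared with CYBB and NOX1 the AGE-RAGE pathway of diabetic complications. The 5 members of the migration pathway were the 5 called in H24/NC, and NOX1 and NOX4 were outside it.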

How the data were processed

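RNA-seq of the end of the abdominal aorta was analysed in 9 libraries, grouped by the sample labels (NC, H8 and H24, 3 each), and none was left out. The authors isolated poly(A) mRNA, sequenced paired ends, mapped the reads to Sscrofa11.1 with HISAT (version 2.0) and assembled transcripts with StringTie (version 1.3.0). The submitters' processing notes also name Bowtie 0.12.2 and a mouse build (mm8), with no role given, and their extraction protocol mentions an adipose type. The gene identifiers in the table are those of pig, and the tissue was taken as aorta from the tissue labels. The deposited table gives FPKM values from StringTie, normalized for length and depth, and a whole-number estimated count for every gene in every library, not scaled for depth. The derivation of these expected counts by the authors, the annotation release and the use of strand are not given in the sources used here, so reads of genes that overlap on opposite strands could not be told apart.

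FPKM was used for levels and the estimated counts for tests. Each comparison was fitted on its 2 groups with edgeR 4.0.16 in R 4.3.3 (TMM, two-sided quasi-likelihood test, minimum mean of 0.1 FPKM), and p-values were adjusted over all genes tested. CPM used TMM factors over the 9 libraries, with 0.5 added before log2 values were compared. The method was tested on simulated data. Alternatives were DESeq2 1.42.0, limma 3.58.1 on log2(FPKM + pseudocount), other scalings and filters, a replicate block, a joint fit of all 9 libraries, genes of the same name summed, and each replicate left out. The counts of the gene lists without H24 replicate 3 were added after the data were seen.

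The members and the gene lists were chosen with earlier results of these data known. From each list of other genes, at most 4 with the smallest p in H24/NC were named, apart from RAC1 and SOD1. A planned gene of these lists is not reported here and was left out of the list counts. The choice to name RAC1, SOD1 and single cell type markers was made with their values known. MPO, among the 4 of the superoxide and peroxide list, was described with the neutrophil markers only. Of 5119 genes with no name in the table, 932 were given a symbol by the gene name reference. No sequence is printed, since none was analysed here. Measurements other than RNA-seq were not used.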

Additional observations from a re-analysis of the deposited data

How the results depend on the processing

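The calls by the unadjusted rule held best in H24/NC. There 5 members were called with each library left out in turn (range 5 to 5), and 3 in DESeq2, which gave a p to 4, while 7.77% to 15.2% and 12.5% of all genes were called. CYBB was called in all 17 alternatives in H24/NC and in all 17 in H8/NC, and in 0 of 17 in H24/H8. By the adjusted rule the H24/NC count was 3 in DESeq2 and 0 to 4 with a library left out, 4 being without H24 replicate 3, against 6.43% and 0% to 2.1% of all genes. In H8/NC 2 passed the adjusted rule in DESeq2 (4.3% of all genes), and in H24/H8 1 (4.4%). The all-gene shares by the adjusted rule in DESeq2 count also genes without a p.

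In H8/NC the unadjusted count of 4, beside 7.39% of all genes, fell to 2 with a filter of at least 1 FPKM (of 4 tested; 5.67% of all genes), to 1 with limma on log2(FPKM + 1) (2.39%) and to 1 with all 9 libraries in one fit (5.64%). With a library left out it was 2 to 4 (5.9% to 8.73%), and it was 2 (CYBB and RAC2) without NC replicate 2, NC replicate 3 or H8 replicate 1. In H24/H8 the count was 2 in DESeq2, of 4 with a p (12.8% of all genes), and 2 to 4 with a library left out (5.4% to 14.2%), with 2 without H8 replicate 2 or H8 replicate 3. Direction turned for NOX4 in H24/NC without NC replicate 2 (0.25) and without H24 replicate 3 (0.15), for NOX4 in H8/NC without H8 replicate 2 (-0.085), and for CYBB in H24/H8 without H24 replicate 3 (-0.22). With a library left out NOX4 ranged from -0.45 to 0.25 in H24/NC and from -0.085 to 0.72 in H8/NC, and CYBB in H24/H8 from -0.22 to 3.35. The cause was not tested.

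Replicate numbers showed no sign of pairing the pigs, although 3 libraries a group cannot exclude a pairing. Deviations from group means correlated at -0.06 to 0.10 for the same number and at -0.18 to 0.18 for different numbers. With the replicate block 5 members were called in H24/NC, 4 in H8/NC and 2 in H24/H8 (NCF1 and NCF4), against 9.2%, 6.63% and 8.62% of all genes. NOX1, at 0 to 4 counts, entered no fit but that with no filter, and depth limits what can be said of its level.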
